A study of Mus musculus with 13 samples.

Results

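Elf5, Ehf, Kit, Sox9, Sox10 and Mia are 6 of the 24421 genes in the count table, and all 6 passed the filter on low counts. They were chosen by name as genes of alveolar and luminal progenitor cells, together with Mia, a gene linked to SOX10. The choice was made from earlier results of these libraries, in which Mia had been among the genes named as higher in tumors than in glands. The comparison of tumors with glands is therefore given below as a description of the members, with no p-value and nothing read from how many of them were called.

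RNA depleted of ribosomal RNA was sequenced from 11 tumors, each taken singly, and from 2 glands free of cancer, all from MMTV-HER2/Neu females. In this model a rat HER2/Neu cDNA is driven in breast epithelium by the promoter of mouse mammary tumor virus, and mammary tumors arise spontaneously. The labels give 1 strain for all 13 libraries, FVB/N with the transgene TgN (MMTV-HER2/neu) of line 202Mul/J, so the glands carry it too, although the genotype field reads wild type. Ages at collection were not given in the sources used here.

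The glands (n = 2) and the primary untreated tumors (n = 3) came from untreated mice. The mice of the primary stavudine tumors (n = 3) had stavudine, an inhibitor of reverse transcriptase, in their water at 1 mg/mL, an estimated 200 mg/kg per day. Recurrent 17-DMAG tumors (n = 3) had regrown under injections of the HSP90 inhibitor 17-DMAG, given 3 times per week at 20 mg/kg. Both agents had been given to the mice of the recurrent 17-DMAG plus stavudine tumors (n = 2). Stavudine was started at 2 months of age or once a tumor had appeared, and the labels do not say which start applies to which tumor. The study describes its primary stavudine tumors as arising in mice under stavudine. No label names the animals, so p-values measure the spread between these samples only.

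The secretory side of the mammary epithelium is renewed by luminal progenitors that lack estrogen receptor. ELF5 is the ETS factor that, downstream of prolactin and STAT5, drives these cells toward milk secretion, and EHF is a related ETS factor of epithelia. KIT is a receptor tyrosine kinase on the surface of luminal progenitors and of mast cells and melanocytes. SOX9 and SOX10 are related factors that mark luminal progenitor and stem-like states in the mammary gland, while SOX10 is also the identity factor of Schwann cells and melanocytes and SOX9 that of cartilage. MIA is a small secreted protein of cartilage and melanoma cells whose gene is a known target of SOX9 and SOX10.

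Library totals ran from 39921388 to 56887708 counts, so that 3 counts, taken as the floor, equalled 0.0587 to 0.107 CPM, the count per 1e6 counts of a library after scaling by TMM factors. The lowest count of a member in any library was 60 (Mia in gland 2), which lies above the floor. The 2 glands differed from each other: the 8 milk protein genes summed to 28062 CPM in gland 1 and to 764799 CPM in gland 2, against 4604 to 23368 CPM in tumors. The TMM factor was 0.493 for gland 2 and 0.999 to 1.12 for the rest. Skeletal muscle genes summed to 5.90 CPM in gland 1 and to 1695 CPM in gland 2. Recurrent 17-DMAG replicate 1 and recurrent 17-DMAG plus stavudine replicate 2 differed from the other tumors in several lists named below, and the values without them are given where they matter.

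On GRCm38, Ehf (chromosome 2, 103263433 to 103303278, minus strand) and Elf5 (chromosome 2, 103411688 to 103450989, plus strand) are 108.41 kb apart. Kit lies on chromosome 5 (75574916 to 75656722), Sox9 on chromosome 11 (112782224 to 112787760) and Sox10 on chromosome 15 (79154908 to 79165240). Mia (chromosome 7, 27179742 to 27181157) is a gene of 994 exonic bases. The annotated readthrough transcript Gm21983 (27168430 to 27181086, same strand) joins it with its neighbor Rab4b, and it had no row of its own in the count table. Reads of such a transcript cannot be told apart from those of Mia. Rab4b itself was at 20.1 and 16.9 CPM in the glands, within the range of the tumors, where the highest was 23.7 CPM.

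Promoter windows of 300 bases, from 250 before to 50 after a RefSeq transcription start on GRCm38.p6, were at hand for 3 members (Elf5 with 2 starts, Kit with 2 starts 4 bases apart, and Mia). They are shown for these 3 members, for Kit from 1 of its starts. No window was at hand for Ehf, Sox9 and Sox10. Capitals mark every match, on either strand, to 6 short motifs. SOX factors bind ACAAAG, and also the shorter ACAAT. ETS factors bind CCGGAA, and likewise AGGAAG. The STAT5 motif was TTCNNNGAA, while GATA3 was searched as GATAAG.
Elf5, start 1, chr2:103411848-103412147, plus strand: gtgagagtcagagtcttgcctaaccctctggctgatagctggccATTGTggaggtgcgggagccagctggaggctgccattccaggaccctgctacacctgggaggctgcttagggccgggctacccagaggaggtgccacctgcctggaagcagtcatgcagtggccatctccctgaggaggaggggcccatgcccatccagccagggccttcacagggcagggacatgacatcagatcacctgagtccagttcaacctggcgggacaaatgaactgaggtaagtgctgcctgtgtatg
Elf5, start 2, chr2:103423818-103424117, plus strand: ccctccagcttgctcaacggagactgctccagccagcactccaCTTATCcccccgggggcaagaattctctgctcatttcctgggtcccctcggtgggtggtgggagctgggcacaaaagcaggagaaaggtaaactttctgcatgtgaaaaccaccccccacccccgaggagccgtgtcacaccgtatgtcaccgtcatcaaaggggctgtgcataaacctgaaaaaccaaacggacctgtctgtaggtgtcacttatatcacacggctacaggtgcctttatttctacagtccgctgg
Kit, chr5:75574737-75575036, plus strand: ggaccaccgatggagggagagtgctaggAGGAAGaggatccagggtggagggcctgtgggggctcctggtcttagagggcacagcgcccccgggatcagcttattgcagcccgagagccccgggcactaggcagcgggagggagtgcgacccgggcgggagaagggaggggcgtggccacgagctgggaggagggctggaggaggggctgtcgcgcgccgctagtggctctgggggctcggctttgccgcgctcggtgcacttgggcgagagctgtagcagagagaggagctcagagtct
Mia, chr7:27181100-27181399, minus strand: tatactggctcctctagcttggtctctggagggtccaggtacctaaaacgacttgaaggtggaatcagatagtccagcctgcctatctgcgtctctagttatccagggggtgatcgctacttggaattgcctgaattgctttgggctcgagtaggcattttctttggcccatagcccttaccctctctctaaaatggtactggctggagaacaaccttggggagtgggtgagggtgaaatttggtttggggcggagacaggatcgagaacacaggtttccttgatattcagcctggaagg

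The first Elf5 window held 1 match to ACAAT, as ATTGT at -206 from the start, and the second held 1 match to GATAAG, as CTTATC at -207. The Kit window held 1 match to AGGAAG at -222. In the Mia window none of the 6 motifs was found, which says only that these letters are not in this window. Such matches are common. Of 32851 windows of the same length, 31.0% held ACAAT and 18.7% held ACAAAG. The ETS motif AGGAAG was in 35.4% and CCGGAA in 14.9%, the STAT5 motif in 8.30% and the GATA3 motif in 7.44%.

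Elf5 was lower in every tumor than in either gland. It stood at 313 CPM in gland 1 and at 1081 CPM in gland 2, the library rich in milk transcripts. In primary untreated tumors it was at 150.0, 227 and 170.4 CPM, and in primary stavudine tumors at 172, 209 and 181 CPM. Recurrent 17-DMAG tumors had 305, 144 and 152 CPM and recurrent 17-DMAG plus stavudine tumors 299 and 169 CPM. The highest tumor, recurrent 17-DMAG replicate 1, stood close to gland 1 (305 against 313 CPM), while gland 2 was 5.46 times the tumor mean. The log2 fold change of the mean of the 4 tumor groups over the glands was -1.80 (SE 0.36). It was -0.56 without gland 2 and -2.40 without gland 1.

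Ehf, the neighbor of Elf5 in the genome and in the ETS family, did not separate tumors from glands. The glands stood at 396 and 527 CPM. The primary untreated tumors were at 339, 534 and 511 CPM and the primary stavudine tumors at 547, 785 and 369 CPM. The recurrent 17-DMAG tumors were at 359, 441 and 356 CPM, and the recurrent 17-DMAG plus stavudine tumors at 363 and 173 CPM. The range of the tumors enclosed both glands, with a log2 fold change of -0.19 (SE 0.30) that turned to 0.12 without gland 2. Per kb of exon, the ratio of Elf5 to Ehf was 0.750 and 1.95 in the glands and between 0.252 and 0.928 in tumors.

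Kit was at 528 CPM in gland 1 and at 126 CPM in gland 2. Primary untreated tumors were at 838, 733 and 892 CPM and primary stavudine tumors at 650.4, 933 and 1129 CPM. Recurrent tumors stood at 417, 870.4 and 900.0 CPM after 17-DMAG alone and at 786 and 561 CPM after 17-DMAG plus stavudine. All 11 tumors lay above gland 2 and 10 above gland 1, the exception being recurrent 17-DMAG replicate 1. The log2 fold change was 1.25 (SE 0.48), and it was 0.64 without gland 2 and 2.67 without gland 1.

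Sox10 was at 427 CPM in gland 1 and at 311 CPM in gland 2. It stood at 676, 690.1 and 618 CPM in primary untreated tumors and at 638, 619 and 683 CPM in primary stavudine tumors. Recurrent tumors had 499.7, 723 and 676 CPM after 17-DMAG alone and 561 and 407 CPM after both agents. Again 10 of 11 tumors were above both glands, and the exception was recurrent 17-DMAG plus stavudine replicate 2. The log2 fold change was 0.71 (SE 0.19), and it was 0.58 without gland 2 and 0.99 without gland 1.

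Sox9 varied least of the 6 genes among the tumors, with an SD of 0.19 in log2 CPM. The glands were at 127 and 95.7 CPM, the primary untreated tumors at 139, 131 and 115 CPM, and the primary stavudine tumors at 125, 118 and 145 CPM. Recurrent tumors stood at 122, 144 and 137 CPM after 17-DMAG alone and at 149 and 182 CPM after both agents. Tumors overlapped gland 1, which was exceeded by 7 of 11, and the log2 fold change was 0.32 (SE 0.15). The ratio of Sox10 to Sox9 per kb of exon was 4.56 and 4.40 in the glands and ran from 3.03 to 7.28 in tumors.

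Mia had the largest fold change of the 6 genes. It was at 11.8 CPM in gland 1 and at 2.14 CPM in gland 2. Primary untreated tumors were at 31.5, 64.8 and 69.2 CPM and primary stavudine tumors at 33.4, 30.9 and 41.8 CPM. Recurrent tumors stood at 21.3, 36.1 and 26.4 CPM after 17-DMAG alone and at 22.7 and 40.5 CPM after both agents. Every tumor was above both glands, the tumor mean was 3.23 times gland 1 and 17.8 times gland 2, and the log2 fold change was 2.37 (SE 0.59), with 1.71 without gland 2 and 4.12 without gland 1. The ratio of Mia to Sox10 per kb was 0.0847 and 0.0212 in the glands and 0.120 to 0.344 in tumors, so Mia was higher against Sox10 itself.

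**Figure D1:**
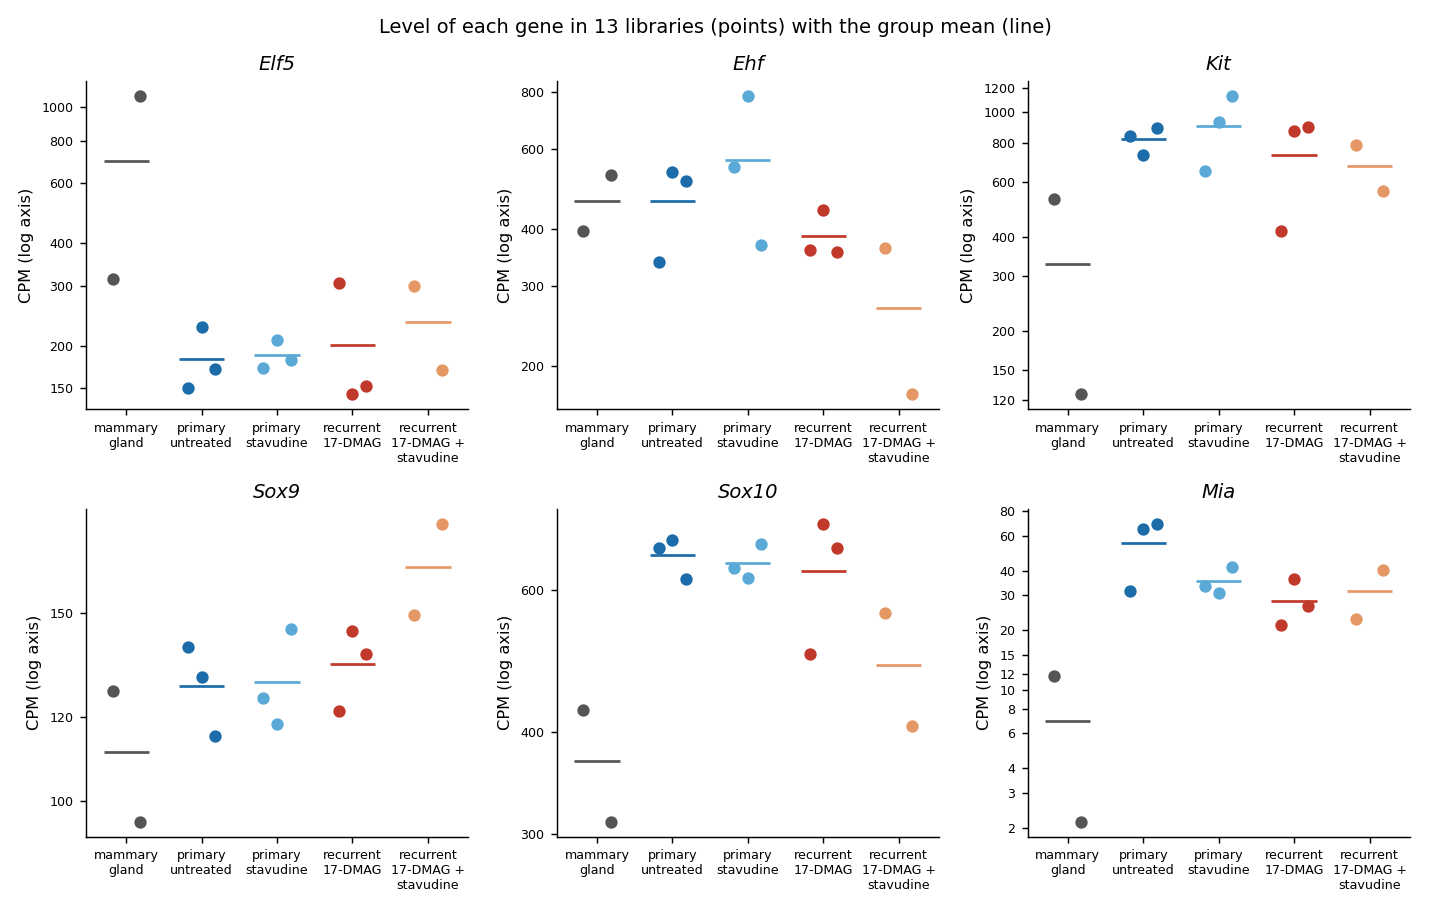
Level of each of the 6 genes in CPM (log axis, a different range in each panel) for 2 mammary glands and 11 tumors of 4 groups, each point a library and each line a group mean. Elf5 lies below both glands in all 11 tumors and Mia above both, while the 2 glands themselves stand apart in Elf5, Kit and Mia.

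Across all genes tested, 4.14% had all tumors above both glands, as Mia did, and 7.37% had all tumors below both, as Elf5 did. In the fit of 13 libraries edgeR called 3 of the 6 members between tumors and glands (Elf5, Sox10 and Mia), against 10.4% of 17135 genes (275 higher and 1510 lower in tumors). Since the genes were picked with this comparison in view, nothing is read from that count. It also depended on gland 2, as 0 members were called without it and 5 without gland 1.

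Levels between genes can be compared only per length, here as CPM per kb of exon. On that scale Sox10 was the highest of the 6 genes in all 11 tumors, at 133 to 237 CPM per kb. Kit, at 46.8 to 127 CPM per kb, and Ehf, at 31.1 to 141 CPM per kb, overlapped each other and shared the next places: Kit was the second in 7 tumors and Ehf in 4. Elf5 (24.6 to 51.9), Sox9 (27.8 to 44.0) and Mia (21.4 to 69.6 CPM per kb) overlapped in their ranges and changed places from tumor to tumor. In gland 1 the order was Sox10, Ehf, Kit, Elf5, Sox9 and Mia, and in gland 2 it was Elf5, Sox10, Ehf, Sox9, Kit and Mia. Elf5 was thus the highest in the gland rich in milk transcripts, at 184 CPM per kb, and the lowest of the 6 in 6 tumors.

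**Figure D2:**
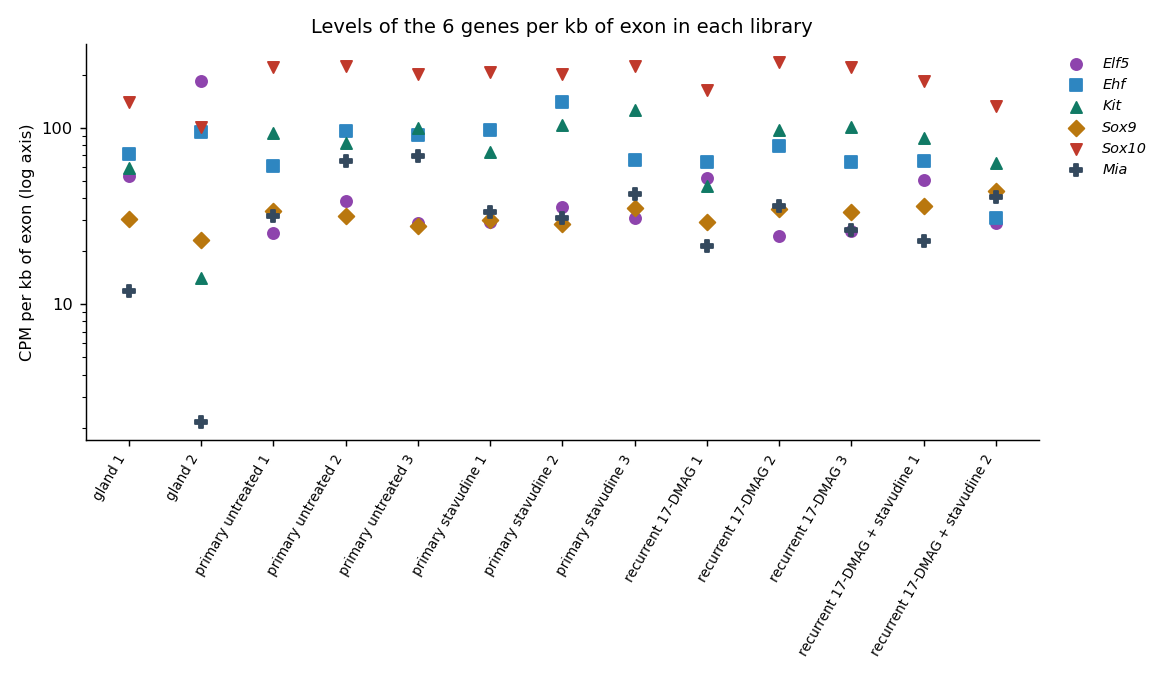
CPM per kb of exon (log axis) of the 6 genes in each of 13 libraries, 1 symbol per gene. Sox10 is the top symbol in all 11 tumors, and in gland 2 Elf5 is the top and Mia the bottom symbol.

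The glands and tumors also differed in cell types, and in bulk tissue fewer cells of a type and less RNA per cell cannot be told apart. Luminal epithelium was present in every library: its 8 markers (Krt8, Krt18, Epcam and others) summed to 1745 and 1496 CPM in the glands and to 1416 to 2902 CPM in tumors. Of these 8 genes edgeR called 1, where it called 10.4% of all genes tested. It was the luminal keratin Krt19, which fell by 5.79 on the log2 scale. Dividing each member by this luminal sum left Mia (2.25), Kit (1.02) and Elf5 (-2.12) with the same direction. Sox10 came to 0.18 and Ehf to -0.76, and Sox9 turned from 0.32 to -0.21.

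Of 8 other genes known from luminal progenitors, 3 were higher and 5 lower in tumors than in glands, with a median log2 fold change of -0.28 against -0.02 over all genes tested. The nucleoside transporter gene Slc28a3 was the 1 of 8 that passed the test, which 10.4% of all genes tested passed. It fell by 3.31 on the log2 scale, from 268 and 5088 CPM in the glands to 164 to 596 CPM in tumors, so the ranges overlapped gland 1.

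By log2 fold change over both glands, markers of the other epithelial cells were lower in tumors. Over all genes tested, 10.4% passed the test. All 8 basal and myoepithelial markers were lower and 5 passed the test, among them the basal keratins Krt14 (-5.28) and Krt5 (-5.18) and the contractile genes Myh11 (-4.79) and Cnn1 (-4.59). Of 7 hormone-sensing luminal genes, all were lower and 2 passed the test, Ly6a (-4.40) and Cited1 (-2.95). Their sum in gland 1 (256 CPM) lay inside the range of the tumors (198 to 301 CPM), and that of gland 2 (794 CPM) above it. Milk protein genes, the output of the ELF5 program, were all lower by log2 fold change, and 6 of 8 passed the test. Gland 1 lay inside the range of the tumors for Lalba (441 CPM against 15.9 to 1327 CPM) and Csn3 (6830 against 2946 to 13988 CPM). The same held for Csn1s1 (5956 against 80.8 to 7279 CPM) and Csn1s2b (6.59 against 1.76 to 43.4 CPM). For the mucin gene Glycam1, listed at 0 in all 3 primary stavudine tumors, no log2 fold change is given. It was at 950 and 40807 CPM in the glands and at 0 to 17.1 CPM in tumors. Among the other milk genes the whey gene Wap (-13.52) led on the log2 scale, followed by the caseins Csn1s2b (-10.41) and Csn2 (-7.37). The part of these shifts in the values of the members was not tested.

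Cells outside the epithelium that use the same genes were looked for by their own markers. Mast cells carry KIT, and their 8 markers summed to 56.9986 and 17.7 CPM in the glands and to 0.0422 to 25.3 CPM in tumors. Among tumors the highest of these sums belonged to recurrent 17-DMAG replicate 1, the tumor with the lowest Kit (417 CPM). The lowest was that of primary stavudine replicate 3, the tumor with the highest Kit (1129 CPM). There 7 of the 8 markers were at 0, and the sum lay under the floor of 0.0633 CPM of that library. The part of mast cells in the Kit values was not tested. EdgeR called 0 of the 8 between tumors and glands (6 at an unadjusted p under 0.05), with log2 fold changes from -2.13 (Ms4a2) and -2.37 (Hdc) to -3.37 (Mcpt4). None is given for Fcer1a, which was listed at 0 in gland 2 and in every primary tumor. Melanocyte markers, which would accompany both Kit and Sox10, summed to 3.03 and 2.28 CPM in the glands and to 1.07 to 4.31 CPM in tumors. The pigment genes Tyr, Dct, Tyrp1 and Oca2 were at or under 0.0844 CPM in every tumor. Mlana (-0.38) and Pmel (-0.09), the 2 tested, did not pass (0 at an unadjusted p under 0.05).

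Schwann cell markers summed to 166 and 120.4 CPM in the glands and to 141 to 317 CPM in tumors. Most of the sum came from the cadherin gene Cdh19 (90.0 and 43.0 CPM in the glands, 78.7 to 252 CPM in tumors) and from Mbp. Pmp2 and Gfra3 were at or under 0.0463 CPM in every tumor. EdgeR called 0 of the 6 Schwann markers tested (2 at an unadjusted p under 0.05), with Ncmap at 1.51, Cdh19 at 1.32 and Mbp at -0.26. In tumors the lowest Schwann sums were those of recurrent 17-DMAG plus stavudine replicate 2 (141 CPM) and recurrent 17-DMAG replicate 1 (142 CPM), which were also the tumors with the lowest Sox10. The part of Schwann cells in the Sox10 values was not tested.

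**Figure D3:**
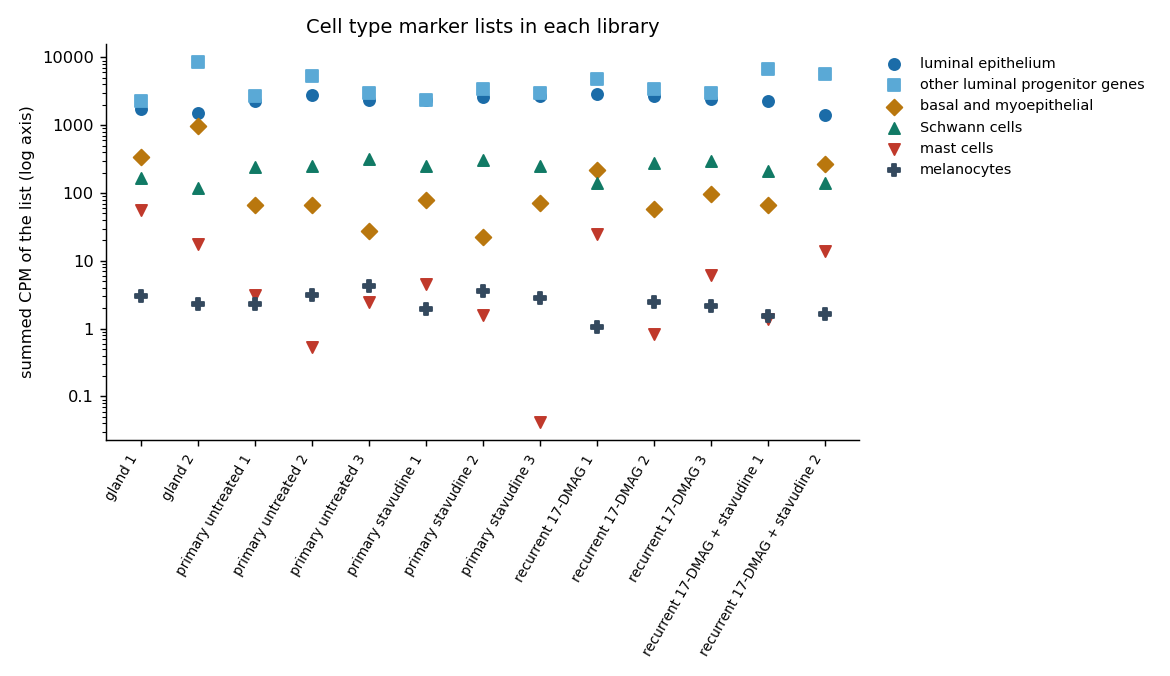
Summed CPM (log axis) of 6 marker lists in each of 13 libraries. The luminal epithelium sum is lowest, at 1416 CPM, in recurrent 17-DMAG plus stavudine replicate 2, melanocyte sums stay between 1.07 and 4.31 CPM in tumors, and mast cell sums are highest in gland 1 and, among tumors, in recurrent 17-DMAG replicate 1.

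Cartilage, where SOX9 acts and MIA is secreted, was looked for by 6 markers. Acan, Matn1 and Matn3 were at or under 0.591 CPM in every tumor and Col2a1 at 0.0461 to 8.17 CPM, listed at 0 in both glands. Col9a1 was at 1124 and 473 CPM in the glands and 1041 to 2262 CPM in tumors, and Comp at 102 and 2.93 CPM in the glands and 31.8 to 527 CPM in tumors. EdgeR called 0 of the 4 genes tested, while 2, Col2a1 and Col9a1, had an unadjusted p under 0.05. The log2 fold changes were 1.58 for Comp, 1.10 for Col9a1 and -1.16 for Acan, and none is given for Col2a1 because both glands were at 0. Adipocyte genes were lower in tumors in 8 of 8 cases with 7 called by edgeR, led by Cidec (-4.26), Retn (-4.11), Plin1 (-4.08) and Adipoq (-3.98). Pan-leukocyte genes were lower in 5 of 5 with 3 called, where 10.4% of all genes tested were called. The 3 were Cd52 (-2.35), Ptprc (-2.24) and Coro1a (-2.06). Their list summed to 461 CPM in gland 1, while gland 2 (87.6 CPM) lay inside the range of the tumors (54.5 to 179 CPM). All 8 muscle genes were lower with 0 called by edgeR (0 at an unadjusted p under 0.05), from -2.34 (Tnnc2) and -2.10 (Myh4) to -1.93 (Acta1) and -1.26 (Myh2). For muscle the sum of gland 1 (5.90 CPM) lay inside the range of the tumors (0.648 to 1607 CPM), and that of gland 2 (1695 CPM) above it.

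In the prolactin, STAT5 and RANK axis around Elf5, edgeR called 2 of 12 tested genes, where it called 10.4% of all genes tested. Both were higher in tumors: Socs2, a feedback inhibitor induced by STAT5, by 1.59554, and the luminal factor Gata3 by 0.94. Stat5a, a transducer of the prolactin signal, was at 151 and 407 CPM in the 2 glands and at 62.0 to 292 CPM over the tumors, with a log2 fold change of -0.89 that did not pass. The median of the 12 genes was -0.20. Among the epithelial ETS factors other than Elf5 and Ehf, Spdef was at 0.09 and Elf3 at -0.16, and neither passed.

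For KIT, 9 genes of its ligand and signaling chain were tested and edgeR called 0 (2 at an unadjusted p under 0.05), with a median of -0.23. The ligand gene Kitl was at 148 and 85.1 CPM in the glands and at 94.8 to 301 CPM in tumors (0.34). The phosphatase gene Ptpn11 was at 0.04, and the lowest were the adaptor Gab2 (-0.66) and the kinase Lyn (-0.44). Of 12 SOX factors tested, 8 were higher, the members Sox9 and Sox10 among them, and 4 lower. Beside Sox10, Sox5 rose by 1.31, while Sox17, a factor of endothelium, fell by 2.52. The median over the SOX list, with these 2 members in it, was 0.67.

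Of 12 genes known as targets of SOX10 or SOX9, 11 were tested, of which 5, the member Mia among them, were higher and 6 lower. Apart from Mia none passed the test of edgeR, and the median with Mia in the list was -0.01. The receptor gene Erbb3, a partner of HER2, was at 229 and 122 CPM in the glands and at 191 to 505 CPM in tumors (0.93, not called). In the MIA family, Mia3 was at 196 and 551 CPM in the glands and 166 to 275 CPM in tumors (-0.95) and Mia2 at or under 1.06 CPM in tumors (0.97). Neither passed the test, and Otor was at or under 0.652 CPM.

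Between tumors, 6 comparisons came from 1 fit of the 11 tumors over 16870 genes. EdgeR called 0 of the 6 members in each of the 6, where it called 0% of all genes. In each comparison 0 genes of the 18 lists were called as well. Before adjustment, p was under 0.05 for 634 genes with stavudine in primary tumors, 1635 for recurrence without stavudine, 1696 for recurrence under stavudine, 1323 for stavudine in recurrent tumors, 2296 for recurrence averaged over both arms, and 1322 for the interaction. In the same order DESeq2 called 17, 61, 331, 277, 419 and 189 genes, none of them a member, and limma voom called 0 genes in each. The lowest adjusted p of a member over all 6 comparisons and all settings tried was 0.130412, for Ehf under DESeq2.

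For stavudine against untreated in primary tumors, 10.8% of genes had groups that did not overlap, and none of the members was among them. Mia was farthest from 0 of the 6 at -0.66 (SE 0.33) on the log2 scale (edgeR adjusted p = 0.999809). The primary stavudine tumors, at 30.9 to 41.8 CPM, lay inside or just under the primary untreated range of 31.5 to 69.2 CPM. The log2 fold changes of the other genes were 0.29 (Ehf), 0.13 (Kit), 0.03 (Elf5), -0.05 (Sox10) and -0.0025 (Sox9).

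For recurrent 17-DMAG against primary untreated tumors, 15.1% of genes had groups without overlap, again with 0 members. Mia had a log2 fold change of -1.0005 (SE 0.33) with an edgeR adjusted p of 0.509. The recurrent tumors, at 21.3 to 36.1 CPM, overlapped the lowest primary untreated tumor (31.5 CPM), and the fold change ran from -1.28 to -0.81 when single tumors were left out. For Kit, Sox10 and Elf5, 1 library decided the sign. Without recurrent 17-DMAG replicate 1, Kit turned from -0.19 to 0.12, Sox10 from -0.08 to 0.09 and Elf5 from 0.12 to -0.29. Sox9, at 0.05, turned to -0.0252 without primary untreated replicate 3, and Ehf, at -0.28, stayed between -0.46 and -0.14 whichever tumor was left out. Recurrent 17-DMAG replicate 1 had the lowest Kit of all tumors and the highest Elf5. It also held the highest mast cell (25.3 CPM), pan-leukocyte (179 CPM) and milk protein sums (23368 CPM) of all tumors.

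Under stavudine, recurrent tumors (n = 2) against primary tumors (n = 3) gave the widest shifts. Ehf was at 363 and 173 CPM against 369 to 785 CPM, Sox10 at 561 and 407 CPM against 619 to 683 CPM, and Sox9 at 149 and 182 CPM against 118 to 145 CPM. These 3 of 6 members did not overlap between the groups, where 35.3% of all genes did not. The log2 fold changes were -1.08 (SE 0.38) for Ehf, -0.41 (SE 0.19) for Sox10 and 0.36 (SE 0.14) for Sox9, with edgeR adjusted p-values of 0.441, 0.4999 and 0.461. Replicate 2 of the recurrent group carried much of this. Without it Ehf came to -0.65, Sox10 to -0.21 and Sox9 to 0.20, and without replicate 1 Ehf was at -1.72.

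That replicate had the lowest luminal epithelium sum of all tumors (1416 CPM) and the highest basal sum (272 CPM). Its skeletal muscle sum, 1607 CPM, was the highest of the tumors too. The part of this mixture in the shifts was not tested. The log2 fold changes of the other members were 0.33 (SE 0.35) for Elf5, -0.42 (SE 0.34) for Kit and -0.16 (SE 0.37) for Mia.

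For stavudine against none in recurrent tumors, 1 member, Sox9, did not overlap (149 and 182 CPM against 122 to 144 CPM), where 21.5% of genes did not. Its log2 fold change was 0.31 (SE 0.14) with an edgeR adjusted p of 0.662. Sox10 was at -0.38 (SE 0.19) and Ehf at -0.52 (SE 0.38), and the rest lay between -0.11 and 0.23. Averaged over both water arms, recurrent tumors differed from primary tumors by -0.68 (SE 0.25) in Ehf and by -0.58 (SE 0.25) in Mia, with edgeR adjusted p-values of 0.327 and 0.357. Here 1.34% of genes separated all 5 recurrent from all 6 primary tumors, and none of the members did.

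The interaction asks whether recurrence changed a gene differently with stavudine than without. The largest terms were 0.84 (SE 0.49) for Mia and -0.80 (SE 0.50) for Ehf, with edgeR adjusted p-values of 0.714 and 0.730. For Mia the separate fold changes were -1.0005 without and -0.16 with stavudine, and for Ehf -0.28 without and -1.08 with it. The test of the difference did not pass for any member.

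**Figure D4:**
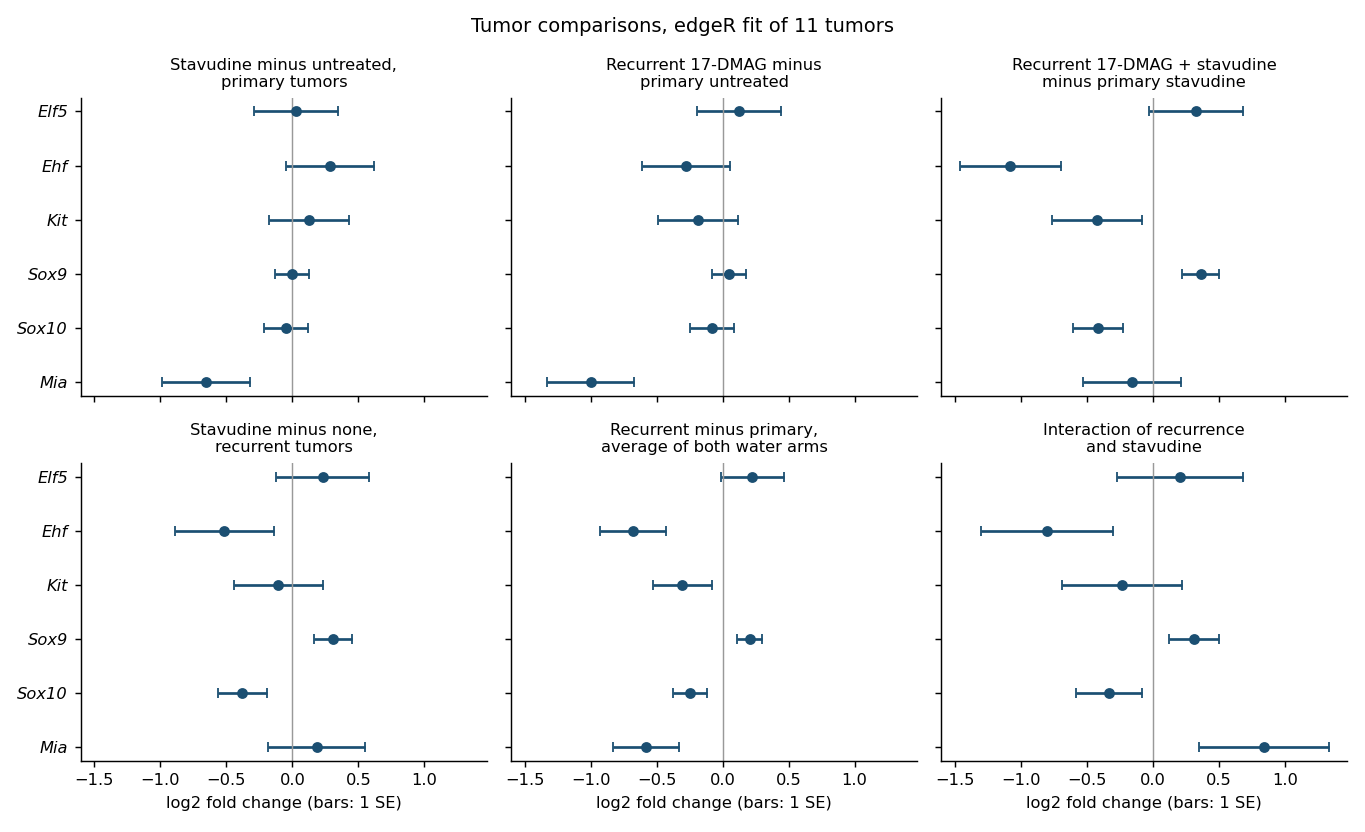
Log2 fold change of the 6 genes in 6 comparisons of tumors from 1 edgeR fit of 11 libraries, with bars of 1 SE. Mia at -1.0005 after 17-DMAG and Ehf at -1.08 under stavudine lie farthest from 0, and no value passed an adjusted p of 0.05.

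The members differed in how steady they were from tumor to tumor. The SD of log2 CPM over the 11 tumors was 0.19 for Sox9 and 0.25 for Sox10, below the 0.28 of the median gene, and 0.38 for Elf5, 0.40 for Kit, 0.55 for Mia and 0.55 for Ehf, above it. Among 12692 genes whose log2 CPM averaged 1 or more, a smaller SD was found for 28.3% (Sox9), 43.2% (Sox10), 66.0% (Elf5), 68.4% (Kit), 80.7% (Mia) and 81.2% (Ehf). In level, Kit and Sox10 stood among the most abundant genes of these tumors by CPM, with 99.4% and 99.2% of genes below their means.

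Of the 15 pairs of members, 1 passed a permutation test of Pearson's r over the 11 tumors. Ehf and Sox9 varied in opposite directions, with r = -0.836 (permutation p = 0.00287, adjusted over 15 pairs 0.0430) and Spearman's rho = -0.60 (permutation p = 0.0573, adjusted 0.655). The adjusted value lay close to the threshold, and it was above 0.05 in 9 of the 11 fits that left out 1 tumor each. In 8 of these 9 r kept its size, from -0.848 to -0.823, and without recurrent 17-DMAG plus stavudine replicate 2 it was -0.638. Without both primary stavudine replicate 2 and recurrent 17-DMAG plus stavudine replicate 2, r was -0.533 (exact permutation p = 0.138). Within groups it was -0.728 (permutation p = 0.0903, adjusted 0.451), and per summed luminal CPM it was -0.461.

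Kit and Sox10 had r = 0.700 (permutation p = 0.0215, adjusted 0.162) and rho = 0.455 (permutation p = 0.163, adjusted 0.655). Without the lowest pair of tumors, recurrent 17-DMAG replicate 1 and recurrent 17-DMAG plus stavudine replicate 2, r fell to 0.201 (exact permutation p = 0.606), and within groups it was 0.772 (permutation p = 0.0880, adjusted 0.451). Sox10 and Mia, factor and target, had r = 0.222 (permutation p = 0.520, adjusted 0.760) and rho = 0.355 (permutation p = 0.285, adjusted 0.655). Without the same pair of tumors it was 0.297 (exact permutation p = 0.435), and within groups -0.013 (permutation p = 0.981). The genomic neighbors Elf5 and Ehf had r = 0.097 (permutation p = 0.767, adjusted 0.821) and rho = 0.30 (permutation p = 0.371, adjusted 0.655).

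**Figure D5:**
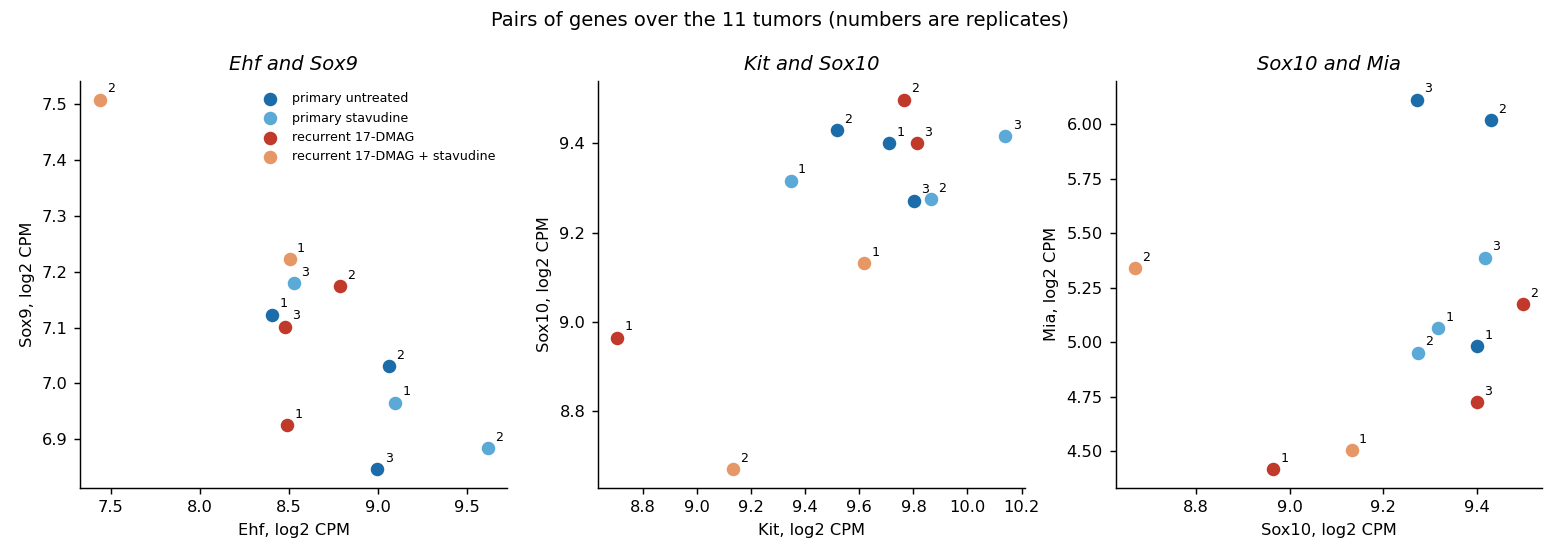
Log2 CPM of 3 pairs of genes over the 11 tumors, 1 color per group and numbers for replicates. Ehf and Sox9 run in opposite directions with recurrent 17-DMAG plus stavudine replicate 2 at the far end, and in Kit and Sox10 the low corner holds recurrent 17-DMAG replicate 1 and that same tumor.

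The genes whose pattern over the 11 tumors was most like that of each member were found by Pearson's r among the 12692 genes and are given as a description. All points share library depth and tissue mixture. For Elf5 they were the casein gene Csn1s2a (r = 0.947) and Rnf149 (0.918). For Ehf they were Stx19 (0.973), Ppp2r3a (0.936) and Btn2a2 (0.928), and for Kit Amz2 (0.947) and Tceanc (0.934). Sox9 was closest to Tnrc18 (0.943), Tmem246 (0.940) and Mboat7 (0.939), Sox10 to Pard3b (0.969), Cnnm3 (0.968) and Ppl (0.964), and Mia to Jkamp (0.953), Osgep (0.932) and Mipol1 (0.917).

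No member was among the 3 genes most like another. Sox10 ranked 1339 of 12692 by likeness to Kit, and Mia 4958 by likeness to Sox10. Without the pair of tumors lowest in Sox10, the r of Pard3b and Ppl to Sox10 fell to 0.800 and 0.796, while that of Csn1s2a to Elf5 was 0.923 and that of Jkamp to Mia 0.941.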

How the data were processed

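Total RNA of 13 libraries was sequenced after ribosomal depletion with a stranded kit. According to the study's methods and the submitters' processing notes, the authors demultiplexed with bcl2fastq 2.20, aligned reads with STAR to the build mm10/GRCm38, and summarized them by gene with featureCounts (Subread 1.6.2) on the UCSC annotation. The strand setting and the handling of multiply mapped reads were not given in the sources used here. The deposited values are raw counts per gene, not normalized, 1 column per library, and library totals ran from 39921388 to 56887708.

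From these counts, edgeR 4.0.16 in R 4.3.3 was run with filterByExpr on the groups, TMM factors and the robust quasi-likelihood test, with Benjamini-Hochberg adjustment over all genes tested in each comparison and a call at an adjusted p under 0.05. The fit of tumors against glands used all 13 libraries, and the other 6 comparisons used the 11 tumors. SE values are the log2 fold change divided by the square root of the F statistic. CPM uses TMM-scaled library sizes, log2 CPM a prior count of 2, and CPM per kb the union of exons in GENCODE M21 on GRCm38. TMM was 0.493 in gland 2 and 0.999 to 1.12 elsewhere. Permutation tests of correlations were two-sided with 100000 resamples. Those within groups instead enumerated all orders of the tumors inside each group, which are few, so their p-values are coarse. Exact ones, on 9 tumors, enumerated all orders.

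The 6 members and the 18 lists were chosen with earlier results of these data known. The members were named in every comparison. From each list up to 4 called genes were named by absolute log2 fold change or, with none called, the 2 highest and 2 lowest. Stat5a, Kitl, Erbb3, Pmp2, Gfra3, Matn1, Matn3 and the other list genes given by level alone were added after their values were seen. Replicate numbers recur across groups, and no label says that a number marks a shared animal or batch. Deviations of tumors from their group means correlated over 0.1 in 3 of 15 same-numbered pairs and in 10 of 30 other pairs. The glands were not in that check, and groups of 2 or 3 tumors leave it unable to decide on pairing. Alternatives were DESeq2 1.42.0, RLE factors, no low-count filter, limma 3.58.1 voom, the compared groups alone, removal of milk, muscle and adipocyte genes, a replicate block, each library left out, and levels per luminal sum. The scripts were tested on simulated data. RefSeq promoter windows were matched by symbol for 3 of 6 members. Some genes that the naming rule selects are not reported here.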

Additional observations from a re-analysis of the deposited data

How the results depend on the processing

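Of 636 alternative values of the members’ log2 fold changes over 7 comparisons, 601 kept their direction. No member was called between tumors under any setting run. Stavudine in primary tumors left Sox9 near 0, and its sign turned under DESeq2 (0.0121), RLE factors (0.0121), no low-count filter (0.0186), the compared groups alone (0.0202) and removal of milk, muscle and adipocyte genes (0.0188). Per summed luminal CPM, Sox9 turned to -0.21 in tumors against glands. With the replicate block, members called between tumors and glands went from 3 to 0, Kit turned to 0.0899 for stavudine in recurrent tumors and to 0.00158 in the interaction, and no other member’s call changed. No label says whether a replicate number pairs samples, and the cause was not tested. The 1 pair of members that passed became 0 after subtracting group means, per luminal sum, without the pair of tumors lowest in Sox10 and without the 2 tumors farthest on the x axis.

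Leaving out 1 library at a time gave 0 (without gland 2) to 5 (without gland 1) members called between tumors and glands, and 1, Elf5, without primary untreated replicate 3, recurrent 17-DMAG replicate 3, or primary stavudine replicate 1 or 3. Ehf ran from -0.34 to 0.12 there, and the pairs that passed from 0 to 1. For stavudine in primary tumors the ranges were -0.10 to 0.23 (Elf5), -0.0114 to 0.52 (Ehf), -0.0591 to 0.33 (Kit), -0.0866 to 0.0681 (Sox9) and -0.0941 to 0.00776 (Sox10). For recurrence after 17-DMAG they were -0.29 to 0.35 (Elf5), -0.37 to 0.12 (Kit), -0.0252 to 0.14 (Sox9) and -0.15 to 0.0864 (Sox10). For recurrence under stavudine they were -0.15 to 0.67 (Elf5) and -0.65 to 0.19 (Mia). For stavudine in recurrent tumors they were -0.25 to 0.66 (Elf5), -0.39 to 0.11 (Kit) and -0.30 to 0.53 (Mia), and in the interaction Elf5 ran from -0.30 to 0.61.

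With 2 glands that differ in milk content and 2 or 3 tumors a group, depth was not the limit for these genes, whose counts lay above the floor in every library. Where a group was left with 1 library, that library was taken to vary like the other groups.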
